A study of Mus musculus with 12 samples.

Results

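The alpha-like globins Hba-a1, Hba-a2 and Hba-x, the beta-like globins Hbb-bs, Hbb-bt, Hbb-y and Hbb-bh1, and the haem synthesis gene Alas2 are described here, 8 of the 10481 genes in a table of ribosome footprint counts from the embryonic mouse central nervous system. They were taken from the table by Ensembl identifier, and all 8 identifiers were present: ENSMUSG00000069919 (Hba-a1), ENSMUSG00000069917 (Hba-a2), ENSMUSG00000055609 (Hba-x), ENSMUSG00000052305 (Hbb-bs), ENSMUSG00000073940 (Hbb-bt), ENSMUSG00000052187 (Hbb-y), ENSMUSG00000052217 (Hbb-bh1) and ENSMUSG00000025270 (Alas2). The set was chosen by earlier results of these counts, in which Hba-a1 stood out among the genes with more footprints in spinal cord of spinal muscular atrophy (SMA) embryos than of controls. The genotype difference in spinal cord is therefore given for these genes as a description, with no test.

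Ribosome profiling sequences the stretches of mRNA that ribosomes shield from RNase, so a count depends on both the amount of an mRNA and the ribosomes on it. Brain and spinal cord were collected at embryonic day 14.5 from the Taiwanese mouse model of SMA, with 3 libraries in each of 4 groups. Control embryos were Smn+/-; SMN2tg/0 and SMA embryos were Smn-/-; SMN2tg/0, so every embryo carried the human SMN2 transgene and the controls were not wild type. The study labelled the libraries as biological triplicates, from 3 embryos of each genotype, and whether the same embryos gave both tissues was not given in the sources used here.

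Haemoglobin is built from alpha-like and beta-like chains, each of which holds a haem group. The embryo uses the genes of both clusters in turn. Primitive red cells, which arise in the yolk sac, make the embryonic zeta chain (Hba-x) and the embryonic beta-like chains (Hbb-y and Hbb-bh1), and definitive red cells from the fetal liver make the adult chains. Midgestation blood holds both kinds of cell. Alas2 is the erythroid form of the enzyme that starts haem synthesis and is a gene of immature red cells. In whole tissue of this kind, fewer red cells and less globin mRNA or fewer ribosomes per red cell cannot be told apart.

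Brain libraries held 3683842 to 9117017 counts and spinal cord libraries 5162190 to 12793955, and each SMA spinal cord library was shallower than each control spinal cord library. The tissue labels were borne out by Hoxc8, a gene of the trunk spinal cord, which lay below 1 normalized CPM (counts scaled to the library's TMM-adjusted size) in the 6 brain libraries and between 71.5 and 107 in the 6 spinal cord libraries. Apoh, a secreted protein gene of liver and yolk sac, reached 42.3 in SMA spinal cord library 1, 12.3 in control spinal cord library 3 and 2.05 in control spinal cord library 1, and was at most 1.47 in the other 9 libraries. As the other markers listed for liver and yolk sac, and all those for megakaryocytes and for macrophages, could not be followed by name, Apoh is the only gene of its list that was read.

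The alpha-like genes lie on chromosome 11 in the order Hba-x (chr11:32276600-32278116), Hba-a1 (chr11:32283672-32284486) and Hba-a2 (chr11:32296492-32297310) in GRCm38.p6, the build to which the study aligned its reads. The beta-like genes lie on the minus strand of chromosome 7, from Hbb-y (chr7:103851754-103853207) through Hbb-bh1 (chr7:103841638-103843162) and Hbb-bs (chr7:103826523-103827928) to Hbb-bt (chr7:103812524-103813923). Alas2 is on the X chromosome (chrX:150547417-150570622). RefSeq promoter windows were found for 7 of the 8 genes, with Hbb-bh1 the exception. The 120 bases upstream of the start are printed for an adult and an embryonic gene of each cluster and for Alas2. A link between these sequences and the footprint counts was not tested. Capitals mark the letters TATAA, as in a TATA box, the CCAAT box letters, the letters CACCC, and the GATA motif core GATAA, each on either strand.
Hba-a1 (chr11:32283552-32283671, plus strand): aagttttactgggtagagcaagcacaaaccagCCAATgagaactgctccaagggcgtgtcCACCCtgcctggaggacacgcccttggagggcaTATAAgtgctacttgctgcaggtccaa
Hba-x (chr11:32276480-32276599, plus strand): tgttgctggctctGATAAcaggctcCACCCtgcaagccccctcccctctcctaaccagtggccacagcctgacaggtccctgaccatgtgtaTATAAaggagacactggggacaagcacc
Hbb-bs (chr7:103827929-103828048, minus strand): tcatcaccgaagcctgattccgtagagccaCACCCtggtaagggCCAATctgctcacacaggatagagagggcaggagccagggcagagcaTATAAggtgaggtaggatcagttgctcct
Hbb-y (chr7:103853208-103853327, minus strand): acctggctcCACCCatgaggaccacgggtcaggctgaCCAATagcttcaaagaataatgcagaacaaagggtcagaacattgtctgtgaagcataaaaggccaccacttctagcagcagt
Alas2 (chrX:150547297-150547416, plus strand): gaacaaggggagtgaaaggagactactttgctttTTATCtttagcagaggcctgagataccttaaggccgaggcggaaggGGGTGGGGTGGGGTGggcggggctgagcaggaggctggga

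CACCC, the letters bound by Krüppel-like factors such as KLF1, was present in all 7 windows and in 31.7% of the 32851 mouse promoter windows of that length. CCAAT was present in 5 of the 7, in the adult genes and Hbb-y, and in 21.3% of all windows. TATAA was present in 5 of the 7, in the adult genes and Hba-x, and in 11.8% of all windows. GATAA, the core of the GATA1 motif, was found in Hba-x and, on the opposite strand, in Alas2, and in 10.5% of all windows. In Hbb-bt, 1 CCAAT on the opposite strand directly adjoins 1 on the gene's strand. The windows of Hba-a1 and Hba-a2 shared 297 bases without a difference, of which 47 lie after the start. Those of Hbb-bs and Hbb-bt were identical at 168 of 299 bases when aligned without gaps.

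Adult globins carried most of the footprints of the set. Per kilobase of deposited gene length, the mean over the 12 libraries was 589 normalized CPM for Hba-a2, 536 for Hbb-bs, 517 for Hba-a1 and 268 for Hbb-bt. The embryonic globins followed with 84.5 for Hbb-y, 26.4 for Hba-x and 2.09 for Hbb-bh1. Alas2, at 4.78, lay between Hba-x and Hbb-bh1. This order held in each of the 12 libraries for Hba-a1 over Hbb-bt, Hbb-bt over Hbb-y, Hbb-y over Hba-x and Hba-x over Alas2. It did not separate Hbb-bs from Hba-a1, which was lower in 8 of 12 libraries, and it was not complete for Hba-a2 over Hbb-bs (11 of 12) or Alas2 over Hbb-bh1 (10 of 12). By summed counts per base, Hba-a2, Hbb-bs and Hba-a1 ranked 28, 31 and 32 among the 10481 genes. By summed counts without length they ranked 510, 473 and 448, so the order of Hba-a2 and Hba-a1 depends on their deposited lengths. These were 667 bases for Hba-a2 and 812 for Hba-a1. Together the 7 globins took 0.158% ± 0.032 (SD, n = 3) of brain counts in controls and 0.188% ± 0.0086 in SMA embryos. Of spinal cord counts they took 0.105% ± 0.0071 in controls and 0.144% ± 0.013 in SMA embryos.

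**Figure D1:**
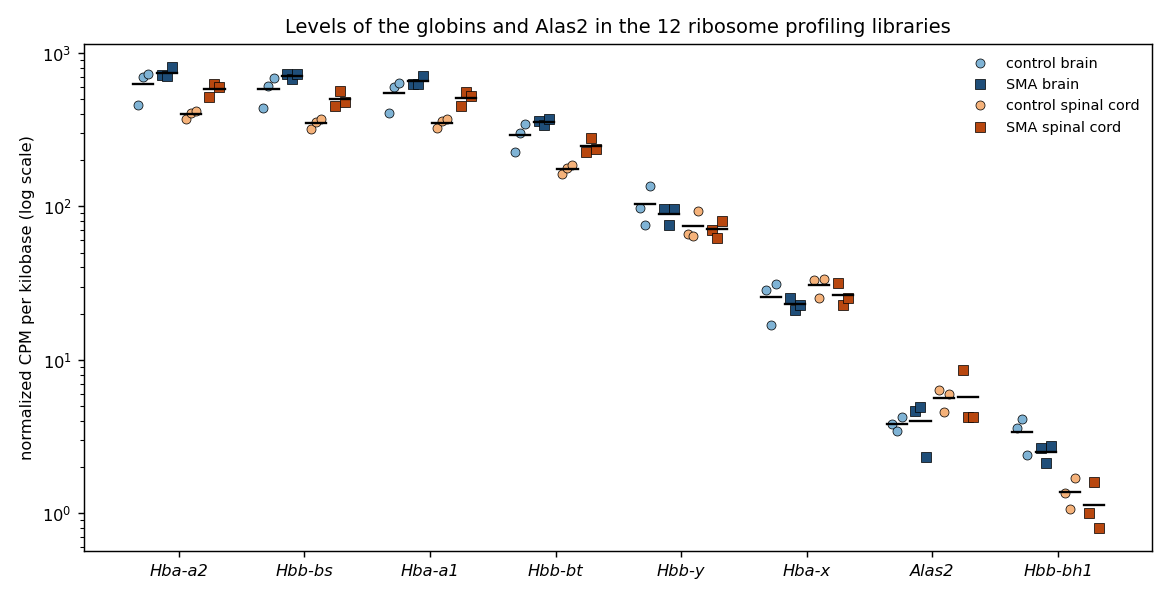
Normalized CPM per kilobase of deposited gene length, on a log axis, for the 7 globins and Alas2 in 12 libraries. Each point is a library and each bar is the mean of 3 libraries, and the adult globins lie above Hbb-y, Hba-x, Alas2 and Hbb-bh1 in every group.

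Hbb-bh1 was the only gene of the set with a mean under 20 counts. In brain it had 20, 12 and 6 counts in controls and 6, 7 and 6 in SMA embryos, and in spinal cord 11, 7 and 11 in controls and 5, 5 and 3 in SMA embryos. At this depth a single library gives little more than its presence.

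Raw counts of the adult globins rose with library depth, but by less than in proportion. Hba-a1, an adult alpha chain gene, had 3002, 2340 and 2127 counts in the brain of controls and 1874, 2733 and 2058 in that of SMA embryos. In spinal cord it had 3489, 3106 and 3171 in controls and 2985, 2343 and 2605 in SMA embryos. Its highest count was 1.86 times its lowest. Over the 12 libraries, log2 Hba-a1 counts rose by 0.44 for each doubling of the library total, against a median of 1.07 over the 9781 genes that averaged 20 counts or more and a 5th percentile of 0.48. The corresponding slope was 0.43 for Hba-a2, 0.38 for Hbb-bs and 0.39 for Hbb-bt. Within brain alone the 4 adult genes had slopes of 0.48 to 0.52 and within spinal cord of 0.41 to 0.47, with medians over all genes of 1.08 and 1.04. The slope was 1.31 for Hba-x, 0.81 for Hbb-y and 1.48 for Alas2. Hbb-bh1, with few counts, had 0.47 over the 12 libraries, near the adult genes, but 1.25 within brain and 1.12 within spinal cord.

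Some libraries of similar depth from different tissues and genotypes had similar counts of Hba-a1, and others did not. Control brain library 1 (9117017 counts in all) and SMA spinal cord library 1 (8027322) had 3002 and 2985 counts of Hba-a1. Control brain library 2 (4839144) and SMA spinal cord library 2 (5162190) had 2340 and 2343, while SMA brain library 2 (5406430) had 2733. The deeper SMA spinal cord library 3 (6111591) had 2605. These libraries were picked for their depth after their counts were seen. The study removed reads that lay on the same transcript position, and whether the deposited counts come from before or after that step was not given in the sources used here. The part of that step in the slopes was not tested.

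**Figure D2:**
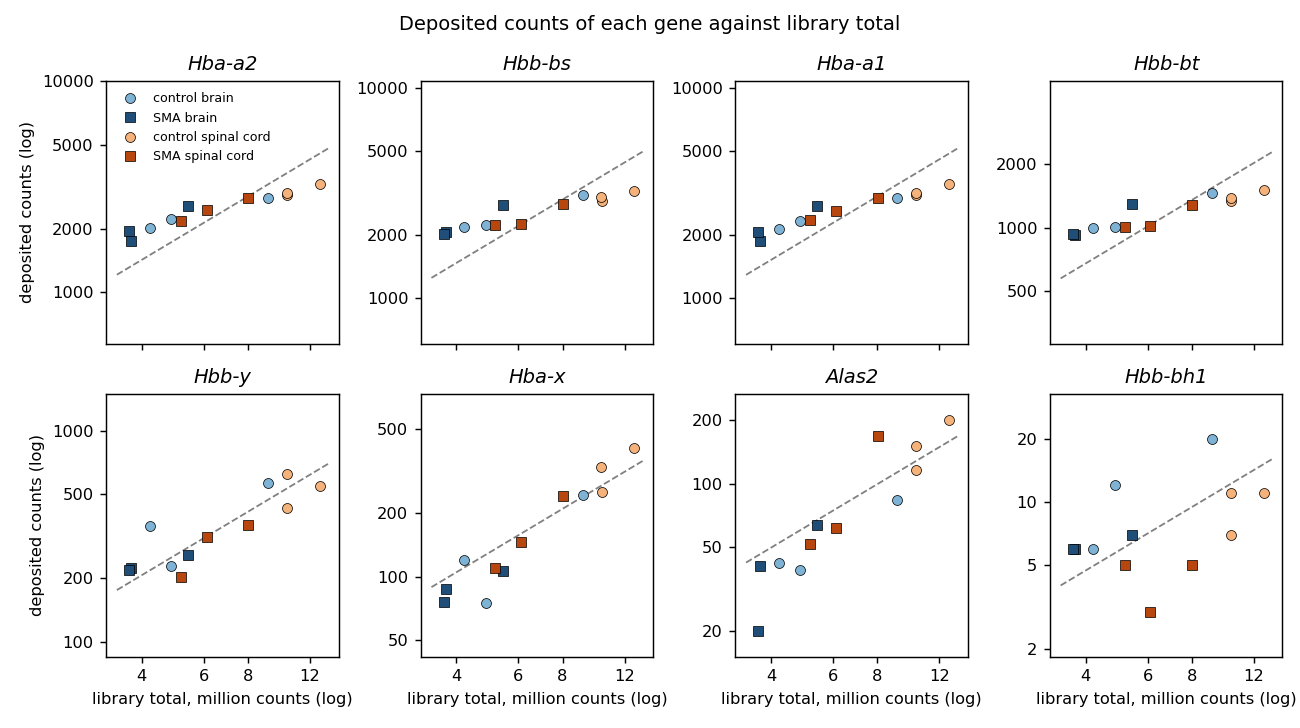
Deposited counts of each gene against the total of its library, both on log axes, for 12 libraries. The dashed line marks counts in proportion to the total, and the 4 adult globins run flatter than that line, with slopes of 0.38 to 0.44, while Hba-x and Alas2 run steeper.

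The adult genes came in pairs, Hba-a1 with Hba-a2 and Hbb-bs with Hbb-bt, and the split between Hba-a1 and Hba-a2 could not be resolved. How alike the transcripts of each pair are was not compared. Reads with up to 5 alignments were kept by the study, and the ratio of Hba-a1 to Hba-a2 counts was 1.07 with an SD of 0.0068 over the 12 libraries, where independent counting of the 2 genes would give an SD of about 0.030. Hba-a1 and Hba-a2 are thus not separate measurements in these counts. The ratio of Hbb-bs to Hbb-bt was 2.18 with an SD of 0.034, against 0.078 from independent counting. How far the counts of Hbb-bs and Hbb-bt were resolved was not tested.

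In brain, none of the 8 genes passed the thresholds of the study (a mean CPM of 0.05 or more, a log2 fold change of 0.5 or more in size, unadjusted p below 0.05) in SMA against control, and 1.53% of the 10481 genes did. Normalized CPM of Hba-a1 were 328, 492 and 519 in control brain and 512, 507 and 574 in SMA brain. The groups overlapped, since control brain library 1, the deepest brain library, was low and the other controls lay within or near the SMA range. For Hbb-bs, an adult beta chain gene, the values were 338, 470 and 530 in controls and 564, 518 and 563 in SMA. The log2 difference was 0.27 (SE 0.15) for Hba-a1 and 0.32 (SE 0.14) for Hbb-bs, with an adjusted p from edgeR of 0.902 for each, and Hba-a2 and Hbb-bt had 0.26 and 0.32. Without control brain library 1 the difference of Hba-a1 was 0.078.

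The embryonic genes lay on the other side of 0 in brain, within their spread. Hba-x, the embryonic alpha-like chain, had 26.7, 15.8 and 29.3 normalized CPM in controls and 23.8, 19.7 and 21.2 in SMA, a log2 difference of -0.14 (SE 0.21). Hbb-y, the embryonic epsilon-like chain, had 61.6, 48.1 and 86.6 in controls and 61.0, 47.9 and 61.1 in SMA, a difference of -0.19 (SE 0.19). For neither gene did a library group stand apart, and both differences turned slightly positive without control brain library 3. Alas2 had 9.19, 8.20 and 10.2 in controls and 11.2, 11.9 and 5.58 in SMA (0.10, SE 0.26). None of the 8 genes had groups without overlap, against 11% of all genes.

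In spinal cord, where the set was noticed, the 4 adult globins were higher in each SMA library than in each control library after TMM normalization. Hba-a1 had 265, 291 and 301 normalized CPM in controls and 368, 455 and 426 in SMA embryos. Hbb-bs had 246, 272 and 287 in controls and 348, 432 and 371 in SMA. Both genes were lowest among SMA libraries in library 1, the deepest of the 3. The log2 differences were 0.53 (SE 0.097) for Hba-a1, 0.53 (SE 0.097) for Hba-a2, 0.50 (SE 0.10) for Hbb-bs and 0.48 (SE 0.11) for Hbb-bt. The first 3 of these were past the thresholds of the study, which 0.983% of all genes passed, 0.343% with the higher level in SMA. Groups without overlap were found for 4 of 8 genes, against 14.7% of all genes, 7.52% with the higher level in SMA. As these values led to the choice of the set, nothing is read from those counts.

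The same libraries gave fewer adult globin counts in SMA before scaling. Mean counts of Hba-a1 were 0.812 of the control mean, while the mean library total was 0.577 of it. Hba-a2, Hbb-bs and Hbb-bt had ratios of 0.813, 0.797 and 0.782. With a loess correction of each library for counts per base, the log2 differences came to 0.26 for Hba-a1 and Hba-a2, 0.24 for Hbb-bs and 0.25 for Hbb-bt, and none of the 8 genes was past the thresholds. Depth and genotype cannot be told apart in these 6 libraries, in which no SMA total reached a control total.

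The embryonic genes and Alas2 had overlapping groups in spinal cord. Hba-x had 31.0, 23.5 and 31.5 normalized CPM in controls and 29.6, 21.4 and 23.9 in SMA, a log2 difference of -0.21 (SE 0.18). Hbb-y had 41.7, 40.4 and 59.0 in controls and 44.2, 39.4 and 51.1 in SMA, a difference of -0.078 (SE 0.17). Mean raw counts of the 2 genes in SMA were 0.501 and 0.545 of control, below the 0.577 of the library totals. Alas2 had 15.3, 11.0 and 14.4 in controls and 20.7, 10.1 and 10.1 in SMA (0.0060, SE 0.32). Its high value was in SMA spinal cord library 1, the library with the most Apoh, and without that library the difference was -0.44 (SE 0.21). Hbb-bh1 gave -0.31 (SE 0.49).

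The genotype difference was compared between the tissues through the interaction of tissue and genotype over 12 libraries. No member passed at an adjusted p below 0.05 in edgeR, nor did any of the 10481 genes, of which 2.38% had an unadjusted p below 0.05. The interaction was 0.29 (SE 0.21) for Hba-a1 and 0.21 (SE 0.20) for Hbb-bs, on the log2 scale, and did not pass the test for either gene. It holds the spinal cord libraries used to notice the set and is a description for these genes.

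**Figure D3:**
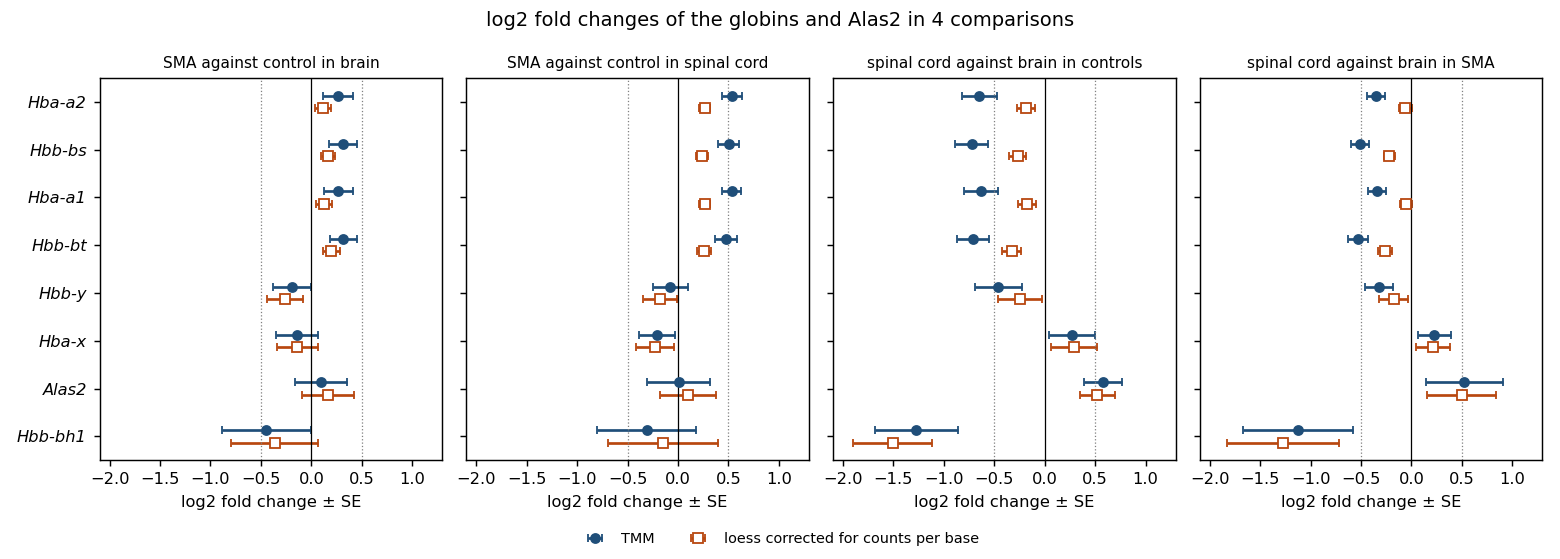
log2 fold changes with their standard errors for the 7 globins and Alas2 in 4 comparisons of 3 against 3 libraries, with TMM alone (filled circles) and with the loess correction for counts per base (open squares). Dotted lines mark 0.5 in either direction, and the adult globins move towards 0 in all 4 comparisons with the correction, from 0.53 to 0.26 for Hba-a1 in SMA spinal cord.

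The embryonic share of the globin footprints was taken within each library, which leaves out normalization. In brain, Hba-x made up 4.04%, 1.62% and 2.82% of alpha-like counts in controls and 2.34%, 1.97% and 1.87% in SMA. In spinal cord it made up 5.71%, 4.03% and 5.14% in controls and 4.00%, 2.38% and 2.81% in SMA. The spinal cord groups did not overlap, though control library 2 (95% Wilson interval 3.56 to 4.54) and SMA library 1 (3.53 to 4.52) were at nearly the same share. Hbb-y and Hbb-bh1 made up 10.5%, 9.38% and 12.6% of beta-like spinal cord counts in controls and 8.14%, 6.05% and 8.75% in SMA, again without overlap. In brain the beta-like share was 11.4%, 6.92% and 10.2% in controls and 7.11%, 6.10% and 7.08% in SMA, where the groups overlapped. The intervals cover counting error only.

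Group means of the alpha-like share in brain were 2.83% ± 1.21 (SD, n = 3) in controls and 2.06% ± 0.25 in SMA, and in spinal cord 4.96% ± 0.86 in controls and 3.06% ± 0.84 in SMA. The share is a value over the set and carries no test. The alpha-like total includes Hba-a1, by which the set was noticed in spinal cord. The beta-like total includes the adult beta genes, which were also higher in those SMA libraries. The spinal cord shares thus hold values tied to the choice of the set, and nothing is read from their lack of overlap. In spinal cord the deeper genotype held the higher shares. Within groups, the deepest library held the highest alpha-like share in control brain (4.04%), control spinal cord (5.71%) and SMA spinal cord (4.00%). In SMA brain it did not. The beta-like share was highest in the deepest library in control brain alone. The deepest SMA brain library held the lowest beta-like share of its group, and the shallowest control spinal cord library the highest of its group. The part of depth in these shares was not tested.

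**Figure D4:**
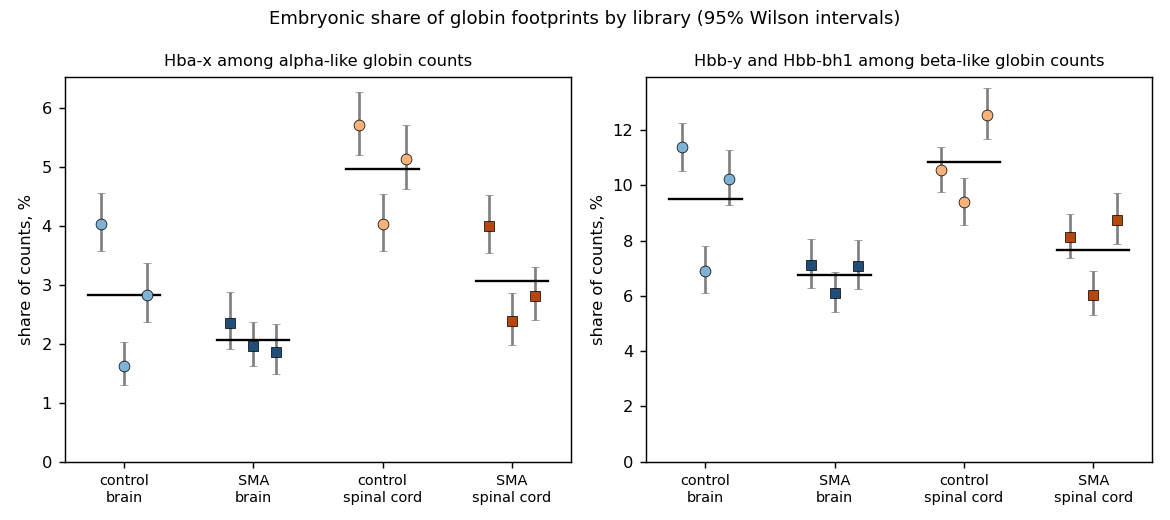
Share of embryonic chains among alpha-like and among beta-like globin counts, in percent, for each of 12 libraries with 95% Wilson intervals, and the mean of each group as a bar. In spinal cord the SMA libraries lie at 2.38% to 4.00% for alpha-like and 6.05% to 8.75% for beta-like chains, below the controls at 4.03% to 5.71% and 9.38% to 12.6%. The totals include the adult globins, through which the set was noticed in spinal cord.

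Adult globins had lower normalized levels in spinal cord than in brain. The spinal cord libraries are those in which the set was noticed, so the tissue differences of these 8 genes are a description, with no test, and nothing is read from how many passed. In controls, 6 of the 8 genes were past the thresholds used for tissues, an adjusted p below 0.05 and a log2 fold change of 0.5 or more in size, as were 27.9% of all genes. Of these 6, 5 were lower in spinal cord, against 12.4% of all genes. For 6 of the 8 the groups did not overlap, against 53.9% of all genes. The log2 difference was -0.63 (SE 0.17) for Hba-a1, -0.65 for Hba-a2, -0.72 (SE 0.16) for Hbb-bs and -0.71 (SE 0.16) for Hbb-bt. In raw counts these genes were higher in spinal cord than in brain, at 1.31 times the brain mean for Hba-a1 and 1.22 times for Hbb-bs, where the totals were 1.84 times as high. With the loess correction, 2 of the 8 genes were past the thresholds, Alas2 and Hbb-bh1, and the difference was -0.18 for Hba-a1 and -0.27 for Hbb-bs on the log2 scale. Without control brain library 2 or without control brain library 3, 2 of the 8 were, Hbb-bs and Hbb-bt.

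In SMA embryos, 2 of the 8 genes were past the thresholds between the tissues, as were 26% of all genes. Both were lower in spinal cord, against 11.1% of all genes, and 5 of the 8 had groups without overlap, against 51.9%. The log2 difference was -0.51 (SE 0.090) for Hbb-bs and -0.53 (SE 0.098) for Hbb-bt. Hba-a1 differed by -0.34 (SE 0.092), under the fold threshold. None of the 8 was past the thresholds with the loess correction, without SMA spinal cord library 1 or without SMA spinal cord library 3, and 1 was without SMA brain library 1 or without SMA brain library 3.

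The embryonic alpha-like gene had differences of the other sign. Hba-x differed between spinal cord and brain by 0.27 (SE 0.23) in controls and by 0.23 (SE 0.17) in SMA, and the values were 0.054 without control brain library 2 and 0.081 without SMA spinal cord library 1. Hbb-y differed by -0.46 (SE 0.23) in controls, or -0.21 without control brain library 3, and by -0.32 (SE 0.14) in SMA. Neither gene was past the thresholds in either genotype. Within a library, the ratio of Hba-x to Hbb-y counts in brain was 0.433, 0.328 and 0.338 in controls and 0.390, 0.411 and 0.347 in SMA. In spinal cord it was 0.743, 0.582 and 0.533 in controls and 0.670, 0.542 and 0.468 in SMA, so the 6 spinal cord libraries lay above the 6 brain libraries. The lowest spinal cord ratio, 0.468, came from a library of 6111591 counts and the highest brain ratio, 0.433, from a library of 9117017. Over the 12 libraries the slope on the library total was 1.31 for Hba-x and 0.81 for Hbb-y. Mean totals in spinal cord were 1.84 times those in brain in controls and 1.51 times in SMA. The part of depth in the ratio of Hba-x to Hbb-y was not tested. The ratio is a value over 2 genes of the set and carries no test.

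Hbb-bh1, the embryonic gene with the fewest counts, differed by -1.27 (SE 0.41) between control spinal cord and brain and by -1.13 (SE 0.55) in SMA. With 3 to 20 counts a library, it was no longer past the thresholds in controls with each of the 6 control libraries left out in turn, with DESeq2 and with the replicate number as a block.

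Alas2 was the only gene of the set past the thresholds with the higher level in spinal cord. Its normalized CPM were 9.19, 8.20 and 10.2 in control brain and 15.3, 11.0 and 14.4 in control spinal cord, without overlap, a log2 difference of 0.57 (SE 0.19). In SMA the difference was 0.53 (SE 0.38), and it was 0.059 without SMA spinal cord library 1. In controls it was no longer past the thresholds with DESeq2, with upper-quartile factors, in 1 fit over 12 libraries, and without any of 5 of the 6 libraries. Alas2 was highest in SMA spinal cord library 1 and control spinal cord libraries 1 and 3, which were also the 3 libraries with the most Apoh. The part of liver or yolk sac RNA in the Alas2 values was not tested.

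**Figure D5:**
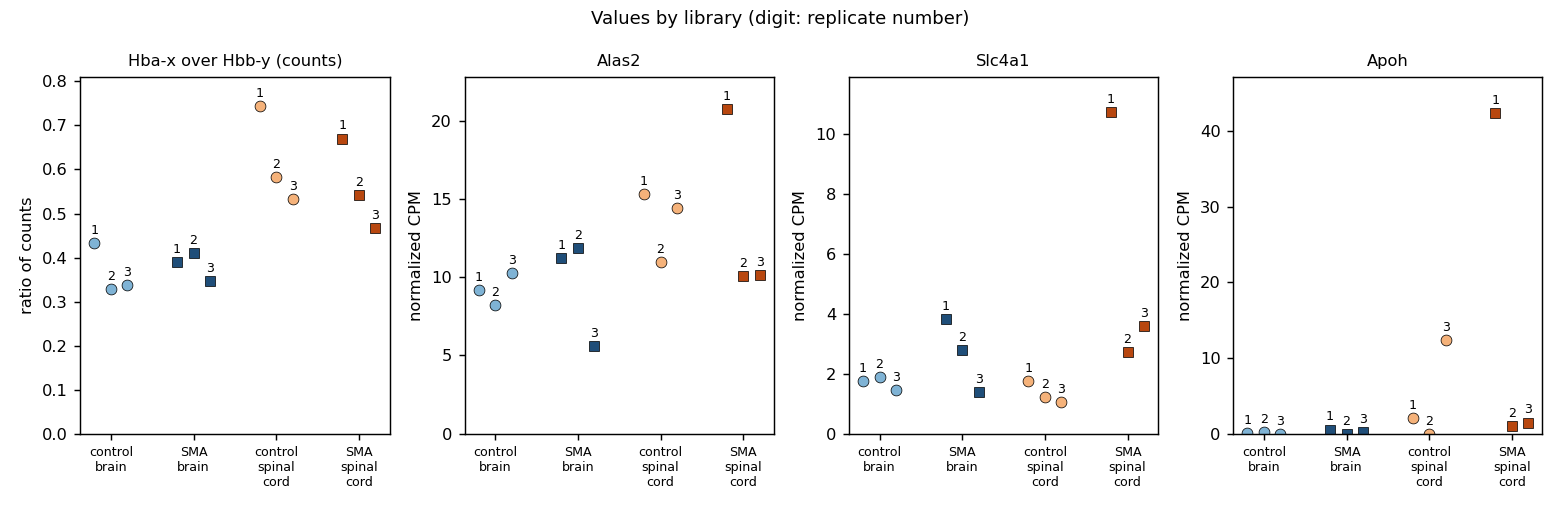
The ratio of Hba-x to Hbb-y counts and the normalized CPM of Alas2, Slc4a1 and Apoh in each of 12 libraries, with replicate numbers beside the points. The ratio is at least 0.468 in the 6 spinal cord libraries and at most 0.433 in brain, and SMA spinal cord library 1 is highest for Alas2 (20.7), Slc4a1 (10.7) and Apoh (42.3).

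Of 84 other genes of red cells, haem and iron on the written list, 17 could be followed by name. In SMA against control, 0 of the 17 passed the thresholds of the study in brain, where 1.53% of all genes passed, and 1 rose in spinal cord, where 0.343% of all genes did. That gene was Slc4a1, the anion exchanger of the red cell membrane, with 1.75, 1.22 and 1.04 normalized CPM in controls and 10.7, 2.72 and 3.60 in SMA (log2 difference 2.08, SE 0.57, adjusted p from edgeR 0.684). The groups did not overlap after scaling, and the largest value was in SMA spinal cord library 1. In raw counts they overlapped, with 23, 13 and 11 in controls and 87, 14 and 22 in SMA. Depth and genotype cannot be told apart in these libraries. The median log2 difference of the 17 was 0.039 in brain and 0.012 in spinal cord, beside 0.0014 and -0.0054 over all genes.

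Between tissues, 3 of the 17 rose in spinal cord and 1 fell in controls, and 3 rose and 1 fell in SMA. Of all genes, 15.5% rose and 12.4% fell in controls, and 14.9% and 11.1% in SMA, so the share of the list that rose was near that of all genes. Those that rose in controls were Sptb, a beta spectrin (2.14, SE 0.19), Slc25a39, a mitochondrial carrier (0.94, SE 0.21), and Dmtn, an actin-bundling protein (0.94, SE 0.15). Prdx2, an abundant peroxidase of red cells that neurons also make, fell by 0.81 (SE 0.15). The same genes had 1.97, 0.85, 1.20 and -0.55 in SMA. The median of the list was 0.24 in each genotype, against 0.015 in controls and 0.027 in SMA over all genes. Dmtn and Prdx2 are also genes of neural tissue. These whole-tissue counts do not separate the cell sources of these genes, Sptb and Slc25a39 included. Hbq1a, a theta globin, had at most 7 counts in a library, and Epor, the erythropoietin receptor, at most 14.

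Genes whose levels ran most like the globins were found by Pearson correlation, over the 12 libraries, with the mean log2 CPM of the 6 globins that averaged 20 counts or more. Among 1924 named genes, those with high values included Cox6c, a subunit of cytochrome oxidase (0.956), Hspa8, a heat shock protein gene (0.944), Tubb5, a tubulin gene (0.942), and the ubiquitin gene Ubb (0.942). The identifiers ENSMUSG00000090137 (0.968) and ENSMUSG00000111197 (0.967), which have no name in the tables used here, ranked 1 and 2 of all 9774 genes compared. The counts of these 4 named genes rose by 0.35 to 0.80 on the log2 scale for each doubling of the total, below the median of 1.07. All points share the same libraries and depths, and the correlation is a description.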

How the data were processed

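The deposited table holds raw footprint counts per gene for 12 libraries, made by the authors from brain and spinal cord, and a gene length in bases. Per the labels and the methods, the authors trimmed reads with cutadapt 4.1, removed rRNA and tRNA reads, aligned the rest with STAR 2.5.3a to GRCm38.p6 allowing up to 5 alignments a read, and left out genes with low FPKM. The counting tool was not given in the sources used here.

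Members and gene lists were chosen with earlier results of these data known. The tests used edgeR 4.0.16 under R 4.3.3 (TMM, estimateDisp, glmQLFit, glmQLFTest, 2-sided, no covariate), and p-values were adjusted by the Benjamini-Hochberg method over all 10481 genes. Genotypes were compared within tissue at the thresholds of the study, and tissues within genotype at an adjusted p below 0.05 and a log2 fold change of 0.5 or more in size. The SE of a log2 fold change is its unshrunk size over the square root of the F statistic. Levels use TMM factors of all 12 libraries. With 3 against 3 libraries the smallest exact permutation p is 0.1. The scripts were tested on simulated counts.

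Replicate numbers were checked as pairs through correlations of deviations from the group means. Between SMA brain and SMA spinal cord, same-numbered libraries had 0.345, 0.114 and 0.151, and the other comparisons had a pair below 0.1. Unlike numbers gave higher values in places, with 0.139 for SMA brain library 2 and SMA spinal cord library 3. SMA brain library 3 and SMA spinal cord library 2 had 0.204. Pairs were therefore not established, and the main tests used none. Replicates differed by 3.85 to 23.1 chi-square units per gene, more than sampling noise.

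Named genes were every member, up to 4 list genes per role by mean CPM, and the 5 named and 2 unnamed genes most like the globins, of which 1 named gene is not reported here. Hoxc8 and Apoh were picked from the marker lists after their values were seen. Names came from the authors' list of 1999 genes, and RefSeq supplied the sequences. Alternatives were DESeq2 1.42.0, other scalings and filters, and a loess correction of each library for counts per base. Further ones were the genes of each adult pair summed, the replicate number as a block, 1 fit over 12 libraries, and each library left out. Figures were drawn with matplotlib.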

Additional observations from a re-analysis of the deposited data

How the results depend on the processing

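In brain, 0 of the 8 genes passed the thresholds under any alternative run, and the interaction of tissue and genotype had 0 in each. In SMA against control in spinal cord the count of 3 went to 0 with the loess correction for counts per base. It went to 1 with the genes of each adult pair summed. With single libraries left out it ranged from 0 (without control library 1 or without SMA library 2) to 4. With control library 3 and SMA library 1, those with the most Apoh, left out together, an alternative chosen after seeing the data, it was 4, and 556 of all genes passed in place of 103. The erythroid list then had 2 in place of 1, as it did with the replicate block, and 1 to 2 with single libraries left out. Between tissues, the count of 6 in controls went to 2 with that correction and to 2 to 5 with single libraries left out. In SMA the count of 2 went to 1 with library size alone, 0 with that correction, 1 with pairs summed and 0 to 2 with single libraries left out.

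The difference of Alas2 in SMA spinal cord changed sign to -0.016 with library size alone, to -0.064 with the replicate block and to -0.39 with the pair of libraries left out, where Hbb-y had 0.13. With single libraries left out, the range was -0.44 to 0.19 for Alas2 and -0.18 to 0.11 for Hbb-y in spinal cord, and -0.36 to 0.0086 for Hba-x, -0.36 to 0.052 for Hbb-y and -0.11 to 0.35 for Alas2 in brain. The replicate block moved no count of these 8 genes by over 1.5 times (0 in brain, 3 in spinal cord, and 5 and 2 between tissues). Without Hba-a2 and Hbb-bt, SMA minus control in spinal cord was -3.40 percentage points for the alpha-like share and 0.0224 for the globin share of all counts. Per base of length, the globin share difference was 0.0879 in brain and 0.115 in spinal cord. Where no cause is named, the cause was not tested. Depth limits Hbb-bh1, with 3 to 20 counts a library.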

Other observations

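Adult alpha-like counts were 1.21 to 1.53 times adult beta-like counts in the 12 libraries, with a mean in brain of 1.33 in controls and 1.29 in SMA, and in spinal cord of 1.41 and 1.45. SMA spinal cord library 3 had the highest ratio and SMA brain library 1 the lowest. The embryonic pair was set the other way, with more Hbb-y than Hba-x counts in every library.

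Alas2 ran with other genes than the globins did. By the same correlation over 12 libraries, in a comparison chosen after seeing the data, the named genes most like Alas2 were Hacl1 (0.936), an enzyme that shortens fatty acids in peroxisomes, Aldh3a2 (0.935), an aldehyde dehydrogenase of fatty aldehydes, Insig2 (0.882), a regulator of sterol synthesis, Aldh6a1 (0.878), an enzyme of valine breakdown, and Mia2 (0.872), a protein of export from the endoplasmic reticulum. None of the 4 named genes given for the globins was among them.

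Slc4a1 had 1.75, 1.89 and 1.46 normalized CPM in control brain and 3.83, 2.78 and 1.39 in SMA brain, with a log2 difference of 0.66 (SE 0.43, adjusted p from edgeR 0.902). In the 6 SMA libraries its counts were 14, 15 and 5 in brain and 87, 14 and 22 in spinal cord. Control counts were 16, 9 and 6 in brain and 23, 13 and 11 in spinal cord.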
